A study of Homo sapiens with 3 samples.

Results

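The 8 genes IL1A, IL1B, IL7, IL15, CSF1, CSF2, CSF3 and TNF encode the interleukin-1 cytokines, IL7, IL15, the 3 colony-stimulating factors and tumour necrosis factor, and they were followed through an RNA-sequencing experiment in MDA-MB-231, an established human triple-negative breast cancer cell line. They were chosen by name from 48162 genes in each library, with the FPKM values of these same libraries already known, so their levels are given as a description. All 8 were found by their Ensembl identifiers, ENSG00000115008 (IL1A), ENSG00000125538 (IL1B), ENSG00000104432 (IL7), ENSG00000164136 (IL15), ENSG00000184371 (CSF1), ENSG00000164400 (CSF2), ENSG00000108342 (CSF3) and ENSG00000232810 (TNF). Of these, 4 (CSF1, CSF2, IL7 and IL15) had a mean of at least 1 FPKM over the 3 libraries, and 4 (IL1A, IL1B, CSF3 and TNF) lay under it. FPKM scales fragments to transcript length and library size, and it was compared here between genes and between libraries. It does not correct for a shift of the typical gene between libraries or for a trend with GC content. Ratios with these adjusted are therefore given below too.

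The control culture, the culture depleted of FoxO3 and the culture depleted of both Geminin and FoxO3 gave 1 library each. All cells grew in DMEM with 10% fetal bovine serum and were infected with lentivirus for 24 hours, then harvested 72 hours after the medium change. The sources used here do not give the depletion sequences, the vector of the control, or whether the infected cells were pools or clones. Because each group is a single library, differences have no replicate check, and every comparison below is one between libraries.

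Cytokines of these families are short secreted or membrane-bound proteins that act at low concentrations through dedicated receptors. Interleukin-1 and tumour necrosis factor start inflammatory signalling through NF-kB, IL7 and IL15 sustain lymphocytes through receptors that share the common gamma chain, and the colony-stimulating factors drive the growth of myeloid cells. Tumour cells can themselves make colony-stimulating factors, CSF1 being a growth factor for macrophages. Many cytokine mRNAs turn over quickly and carry AU-rich elements in their 3' untranslated regions.

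FOXO3, the first target, stood at 12.2 FPKM in control cells, 2.79 in FoxO3-depleted cells and 2.94 in co-depleted cells, and GMNN, which encodes Geminin, at 112.3, 112.2 and 37.0. Whole reads that fit the FPKM values were found for 25907 of 25910 genes above 0, from inferred totals of 14507410, 10760613 and 12267332 reads. They are the smallest reads that fit. For some genes the true reads may be a multiple of them, and the counting intervals narrower. The identity markers had vimentin (VIM) at 574.3 to 607.3 FPKM and the hormone receptor genes ESR1 and PGR at most at 0.12. ERBB2, the receptor gene that is not amplified in triple-negative tumours, was at 38.0, 41.6 and 46.8 FPKM, and the epithelial gene EPCAM, listed as low in this line, at 13.7, 9.80 and 8.95. CAV1 was at 432.1 to 530.2 FPKM and CD44 at 630.8 to 935.2. Of 14 leukocyte markers, 7 or 8 were listed at 0 in each library, among them the lymphocyte genes CD3E and MS4A1. Of all 48162 genes, 25910 were above 0 in at least 1 library, so a value of 0 is common among genes at large. The summed level of the 14 markers was 76.2, 69.0 and 68.1 FPKM, of which LAPTM5 alone made up all but 9.72, 9.67 and 11.3. LYZ, CD8A and CD14 were at most at 1.5, 1.18 and 8.59 FPKM, and the defining pan-leukocyte gene PTPRC was at 0.19, 0 and 0.08. In bulk RNA, fewer cells making a transcript and less of it per cell cannot be told apart.

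CSF1 was by far the most abundant of the 8 transcripts and was lower in both depleted libraries, while CSF2, scarce in the control, was several times higher in both. CSF1 encodes macrophage colony-stimulating factor, the ligand of the receptor tyrosine kinase CSF1R. It stood at 262.9 FPKM in control cells (5748 reads), 171.9 in FoxO3-depleted cells (2787 reads) and 196.7 in co-depleted cells (3637 reads). The control was thus the highest library and the FoxO3-depleted library the lowest. CSF1 made up 95.5% of the summed FPKM of the 8 genes in the control, 90.5% in FoxO3-depleted cells and 90.7% in co-depleted cells.

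The CSF1 level in FoxO3-depleted cells was 65.4% of control, with an exact 95% Clopper-Pearson counting interval of 62.5% to 68.4%. Intervals of this kind cover counting error in those libraries only, not the variation between cultures. CSF1 in co-depleted cells was at 74.8% of control (71.8% to 78.0%). The log2 ratios of (FPKM + 1) were -0.61 and -0.42, so CSF1 passed 1.5-fold in the first comparison and not in the second. With the median gene set to a ratio of 1 the first value became -0.54, which no longer passes. Between the depletions CSF1 was 1.14 times as high in co-depleted cells (1.09 to 1.20).

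CSF2 encodes granulocyte-macrophage colony-stimulating factor. It stood at 3.96 FPKM in control cells (45 reads), 11.99 in FoxO3-depleted cells (101 reads) and 10.4 in co-depleted cells (100 reads). Both depleted libraries were high, and the control was low. The FPKM ratio to control was 3.03 (2.11 to 4.40) in FoxO3-depleted cells and 2.63 (1.83 to 3.82) in co-depleted cells, with log2 ratios of 1.39 and 1.20 on the FPKM + 1 scale. In the order of all 12649 analysed genes these were the values at rank 26 and rank 39 from the top. Between the depletions the ratio was 0.868, with an interval of 0.652 to 1.16 that includes 1. CSF1 was 66.4 times as abundant as CSF2 in the control, 14.3 times in FoxO3-depleted cells and 18.9 times in co-depleted cells.

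CSF3, which encodes granulocyte colony-stimulating factor, was near the limit of detection. It was at 0.49 FPKM (8 reads) in control cells, 0.08 (1 read) in FoxO3-depleted cells and 0.36 (5 reads) in co-depleted cells. The ratio to control was 0.169 (0.0038 to 1.26) in FoxO3-depleted cells and 0.739 (0.190 to 2.56) in co-depleted cells. Both intervals include 1, so a difference was not detectable at this depth.

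**Figure D1:**
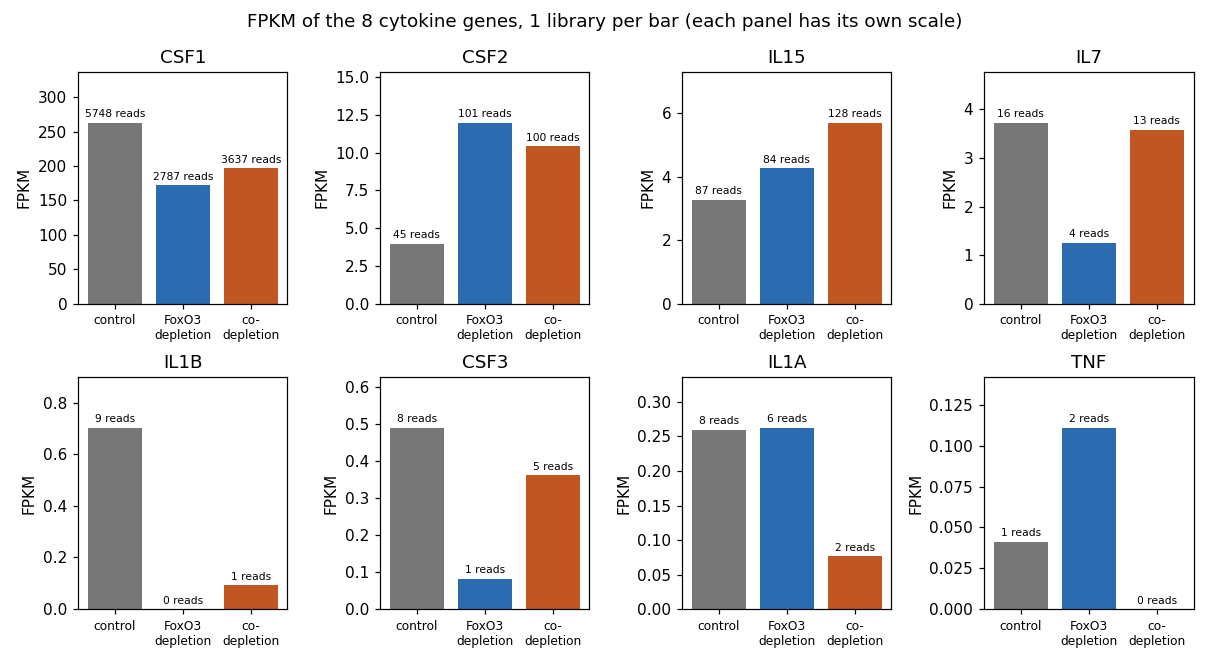
Each panel shows 1 gene, with bars for its FPKM in control cells, FoxO3-depleted cells and co-depleted cells (1 library each, no error bar) and the recovered whole reads above each bar, which for IL7 are the smallest possible set. CSF1 is highest in the control at 262.9 FPKM, CSF2 is highest in FoxO3-depleted cells at 11.99, and IL1B, CSF3, IL1A and TNF rest on at most 9 reads in a library.

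IL15, a cytokine that sustains natural killer and memory T cells, was higher in co-depleted cells. IL7, a survival factor of lymphocytes, had its lowest value in FoxO3-depleted cells, on few reads. IL15 stood at 3.28 FPKM in control cells (87 reads), 4.27 in FoxO3-depleted cells (84 reads) and 5.71 in co-depleted cells (128 reads). Its ratio to control was 1.30 (0.953 to 1.78) in FoxO3-depleted cells, an interval that includes 1, and 1.74 (1.31 to 2.31) in co-depleted cells. On the FPKM + 1 scale the log2 ratios were 0.30 and 0.65. Between the depletions IL15 was 1.34 times as high in co-depleted cells (1.01 to 1.78).

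IL7 stood at 3.73 FPKM in control cells, 1.26 in FoxO3-depleted cells and 3.58 in co-depleted cells. FoxO3-depleted cells were low and the other two libraries lay close together. The smallest whole reads that give these values are 16, 4 and 13. They imply a transcript of 296 bases, and 4 times as many reads (64, 16 and 52) imply 1184 bases, the multiple nearest to the mean of the gene's GENCODE 29 transcripts. The ratio of FoxO3-depleted cells to control was 0.337. Its interval was 0.082 to 1.04 from the smallest reads, which includes 1, and 0.182 to 0.590 from the multiplied ones. The co-depletion was at 0.961 of control (0.425 to 2.13 from the smallest reads).

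Between the depletions IL7 was 2.85 times as high in co-depleted cells. The interval was 0.881 to 12.0 from the smallest reads, which includes 1, and 1.60 to 5.35 from the multiplied ones. The log2 ratio of IL7 there, 1.02, was rank 14 from the top among 12649 genes. IL7 has exons that overlap those of ZC2HC1A on the opposite strand in GENCODE 29, and the sources used here do not give the strand setting of the counting, so reads of the pair cannot be told apart. ZC2HC1A was at 5.41 FPKM in control cells, 2.83 in FoxO3-depleted cells and 2.58 in co-depleted cells, and thus, unlike IL7, was as low in co-depleted cells as in FoxO3-depleted cells.

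The interleukin-1 genes and TNF were barely expressed in any of the libraries. IL1A, which encodes interleukin-1 alpha, was at 0.26 FPKM in control cells (8 reads), 0.26 in FoxO3-depleted cells (6 reads) and 0.08 in co-depleted cells (2 reads). Its ratio to control was 1.01 (0.289 to 3.32) and 0.296 (0.0306 to 1.48), so neither difference was detectable. IL1B, which encodes interleukin-1 beta, had 9 reads in the control (0.70 FPKM), 0 in FoxO3-depleted cells and 1 in co-depleted cells (0.09 FPKM).

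A count of 0 IL1B reads allows up to 3 reads, or 0.32 FPKM, and against that floor IL1B was at least 2.23-fold lower in FoxO3-depleted cells than in the control. With the counting error of the 9 control reads included, the exact interval of the ratio reaches up to 0.683, or 1.46-fold lower. Its ratio to control in co-depleted cells was 0.131, with an interval of 0.0030 to 0.948. TNF, the prototype of its family, had 1 read in the control, 2 in FoxO3-depleted cells and 0 in co-depleted cells (0.04, 0.11 and 0 FPKM), and no ratio can be given. The control library thus held the most reads of IL1B, and the libraries with higher CSF2 did not hold more IL1A or IL1B.

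**Figure D2:**
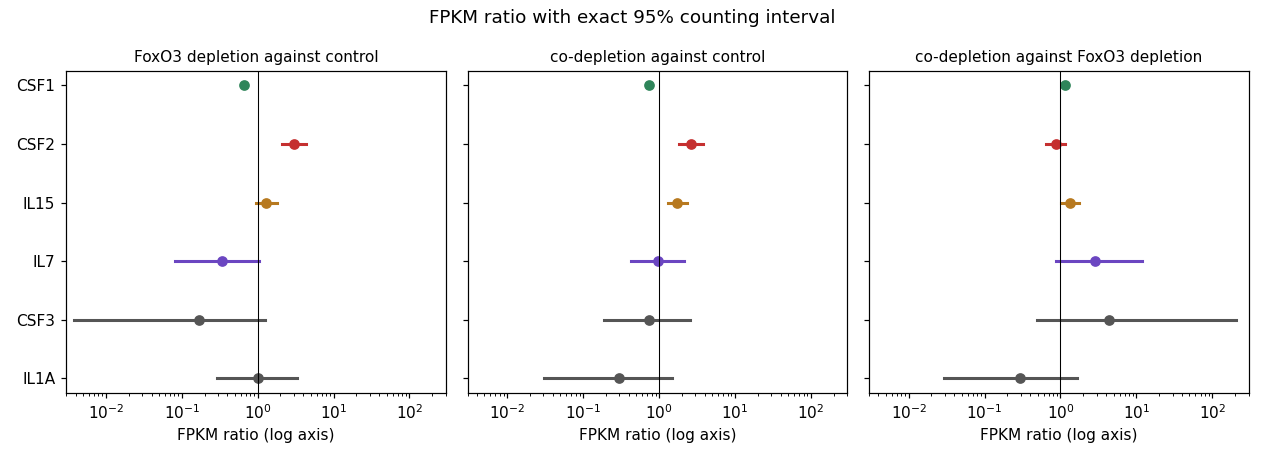
Points give the FPKM ratio of each comparison on a log axis, and lines the exact 95% Clopper-Pearson counting interval from recovered reads (smallest set for IL7). CSF2 lies right of 1 in both comparisons with the control, at 3.03 and 2.63, CSF1 lies left of it at 0.654 and 0.748, and the lines of CSF3 and IL1A cross 1 throughout.

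Read against all analysed genes, the 4 measured cytokine genes were mixed in direction. In FoxO3-depleted cells against the control, 1 of 4 (CSF2) was at least 1.5-fold higher, where 4.0% of 12649 genes were, and 2 of 4 (CSF1 and IL7) were lower, where 16.7% were. At 2-fold, 1 was higher (CSF2, background 0.672%) and 1 lower (IL7, background 5.23%). The counting interval of the FPKM ratio left out 1 for CSF1 and CSF2. It did so for 58.6% of all genes on their smallest fitting reads, so it is no mark of these 2 genes. With its reads multiplied by 4, IL7 joined them, and it did so between the depletions too. The median log2 ratio of the 4 was -0.16, beside -0.07 for all genes.

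Set against the control, co-depleted cells had 2 of 4 (CSF2 and IL15) at least 1.5-fold higher, with a background of 4.02%, and 0 lower, with a background of 12.3%. At 2-fold 1 was higher (CSF2, background 0.625%) and 0 lower (background 2.25%). The interval left out 1 for CSF1, CSF2 and IL15, as for 56.6% of 12648 genes. The median was 0.30, beside -0.06 for all genes. This comparison and the first one share the control library, so their values are not separate evidence.

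In co-depleted cells against FoxO3-depleted cells, where Geminin depletion was added, IL7 was the 1 of 4 at least 1.5-fold higher. It also passed 2-fold, and the backgrounds were 1.35% and 0.126%. This comparison shares the FoxO3-depleted library with the first one. The same low IL7 value enters both calls, so they are not separate evidence. No library was depleted of Geminin alone. In the other direction 0 of 4 passed, with backgrounds of 0.617% at 1.5-fold and 0.0632% at 2-fold. The interval left out 1 for CSF1 and IL15, as for 22.2% of genes. The median was 0.27, beside 0.03 for all genes.

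**Figure D3:**
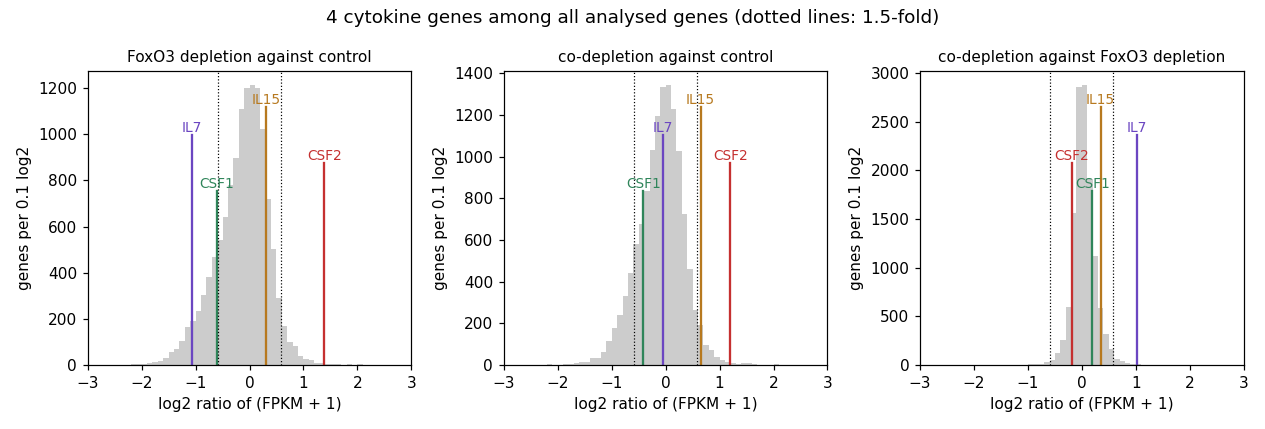
Grey bars count the 12649 analysed genes by log2 ratio of (FPKM + 1) in each comparison, dotted lines mark 1.5-fold, and coloured lines mark CSF1, CSF2, IL7 and IL15. CSF2 stands far right at 1.39 and 1.20 in the comparisons with the control, and IL7 stands far right at 1.02 in co-depleted cells against FoxO3-depleted cells.

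The ratios of many genes varied with the GC content of their transcripts, and the members differ in it. The mean GC content was 38.9% for IL15, 40.0% for IL7, 50.3% for CSF2 and 57.0% for CSF1, beside a median of 49.7% over analysed genes. In FoxO3-depleted cells against the control, genes of like GC content had a median log2 ratio of -0.64 around IL15, -0.53 around IL7, 0.01 around CSF2 and 0.11 around CSF1. With the median of such genes subtracted, IL15 went from 0.30 to 0.94 and passed 1.5-fold, and IL7 went from -1.07 to -0.54 and no longer did. CSF2 was at 1.37 and CSF1 at -0.72.

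Against the control, the adjusted log2 ratios in co-depleted cells were 1.14 for IL15, 0.36 for IL7, 1.19 for CSF2 and -0.52 for CSF1. Between the depletions they were 0.89 for IL7, 0.21 for IL15, 0.19 for CSF1 and -0.15 for CSF2. IL15 was thus higher than genes of like GC content in both depleted libraries. Whether the GC trend is technical was not tested.

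**Figure D4:**
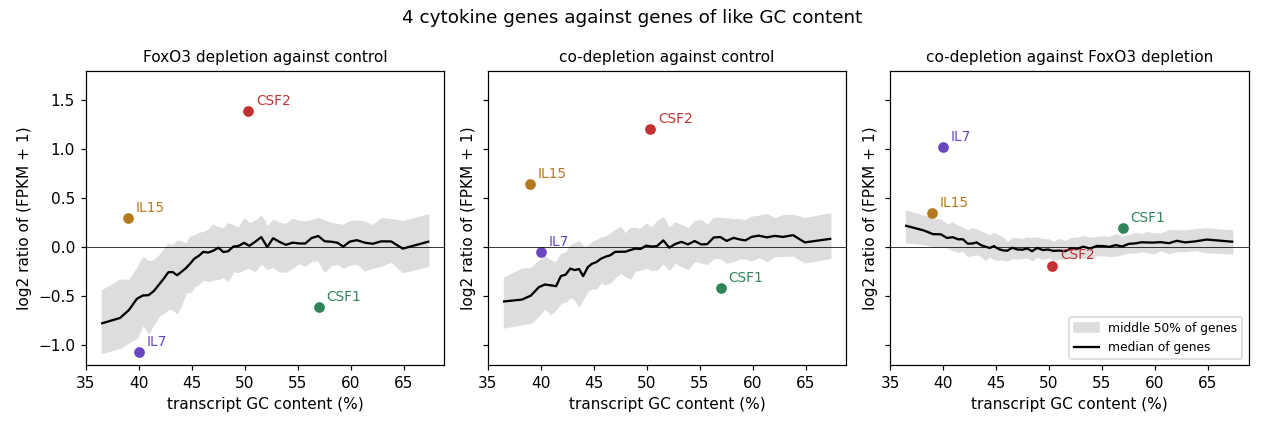
The black line is the median log2 ratio of (FPKM + 1) over 50 bins of genes ordered by transcript GC content, the grey band the middle 50% of genes in each bin, and the points are CSF1, CSF2, IL7 and IL15. GC-poor genes are lower in both comparisons with the control, where IL15 lies above the band at 38.9% GC and CSF1 below it at 57.0%.

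The receptors of these cytokines were unevenly present. IL7R, the IL7 receptor alpha chain, was at 15.6 FPKM in control cells, 45.4 in FoxO3-depleted cells and 40.2 in co-depleted cells, ratios of 2.92 (2.52 to 3.39) and 2.58 (2.23 to 3.00). IL15RA, which presents IL15 to neighbouring cells, was at 26.4, 51.1 and 52.3 FPKM, ratios of 1.93 (1.70 to 2.20) and 1.98 (1.75 to 2.24). Both receptor transcripts were low in the control and high in the depleted libraries. The shared signalling chains were nearly missing, with IL2RG, the common gamma chain, at 0.28, 0.65 and 0.98 FPKM and IL2RB at 0.19, 0 and 0.

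CSF1R was at 3.75 FPKM in control cells (41 reads), 1.48 in FoxO3-depleted cells (12 reads) and 1.62 in co-depleted cells (15 reads), or 39.5% (18.9% to 76.5%) and 43.3% (22.2% to 79.8%) of control. CSF1 and its receptor were therefore both highest in the control. CSF2RA, the ligand-binding chain of the CSF2 receptor, was at 35.7, 56.6 and 44.6 FPKM, ratios of 1.59 (1.42 to 1.77) and 1.25 (1.12 to 1.40). CSF2RA lies in the pseudoautosomal region shared by X and Y, so its counting is uncertain. Its signalling partner CSF2RB was at 0, 0.14 and 0.02 FPKM, and CSF3R was listed at 0 in all 3 libraries.

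The interleukin-1 receptor was expressed, while the transcripts of its ligands IL1A and IL1B were barely detected. IL1R1, the signalling receptor, was at 9.88, 10.5 and 10.4 FPKM, and its partner IL1RAP at 8.85, 8.17 and 8.85. The ratios of IL1R1 to control were 1.06 (0.887 to 1.27) and 1.05 (0.887 to 1.25), so a difference of that size was not detectable. The decoy receptor IL1R2 was at 0, 0.10 and 0.43 FPKM, and the antagonist IL1RN at 0.48, 0.40 and 0.21. TNFRSF1A, the main TNF receptor, was at 127.4, 136.9 and 139.7 FPKM, and TNFRSF1B at 10.6, 13.2 and 12.6.

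**Figure D5:**
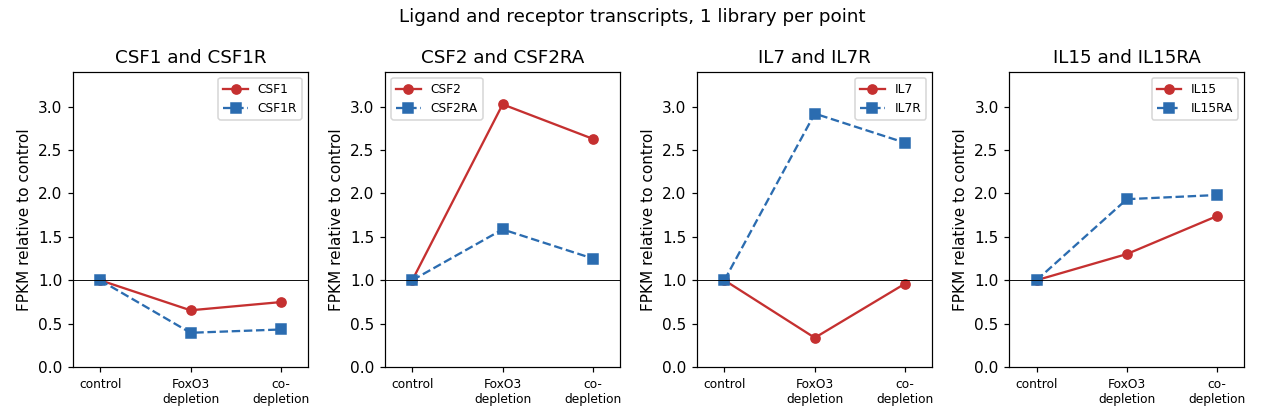
Each panel gives the FPKM of a ligand (red circles) and of its receptor (blue squares) relative to the control, with 1 library per point and lines that only join the points. IL7R is at 2.92 and 2.58 times control where IL7 is at 0.337 and 0.961, and CSF1 and CSF1R both lie under 1.

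The wider pathways were taken from lists chosen with earlier results of these data known, and members with a mean of at least 1 FPKM were counted at 1.5-fold. Of 20 measured genes of interleukin-1 signalling, 2 were higher and 1 lower in FoxO3-depleted cells, with a median log2 ratio of -0.15. Over all analysed genes 4.0% were higher and 16.7% lower in that comparison, and 4.02% and 12.3% in co-depleted cells. The unadjusted counts of each list below are to be read against these shares. GC-adjusted shares are not given here, so counts after GC adjustment have no background beside them. The adjustment moved all genes. In FoxO3-depleted cells their 5% and 95% quantiles went from -1.01 and 0.54 to -0.76 and 0.62. The higher genes of the interleukin-1 list were CASP4, an inflammatory caspase, at 25.5 against 15.7 FPKM, and NLRP3, an inflammasome sensor, at 4.43 against 2.57. After GC adjustment NLRP3 no longer passed. The lower one was SIGIRR, an inhibitory receptor of the family, at 6.83 against 16.4 FPKM in control cells, a log2 ratio of -1.15. IRAK3, an inhibitory kinase, was at 1.20 against 2.21.

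In co-depleted cells 1 gene of that list was higher (CASP4, at 25.4 FPKM) and 3 lower, with a median of -0.12. These 3 were SIGIRR at 7.11, IRAK3 at 1.13 and the kinase IRAK4 at 8.46 against 13.2. After GC adjustment 1 of these 3 lower genes was still past 1.5-fold, SIGIRR at -1.15. IRAK4 and MYD88 were named after their values were seen. SIGIRR was thus low in both depleted libraries, while IL1R1, IL1RAP and the adaptor MYD88 (32.8, 29.7 and 30.2 FPKM) stayed under 1.5-fold.

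Of 12 measured genes of common gamma chain signalling, 3 were higher and 2 lower in FoxO3-depleted cells (median 0.13), where 4.0% and 16.7% of all genes were, so the count of lower genes is at the background. The higher ones were IL7R, IL15RA and SOCS3, a feedback inhibitor of cytokine receptors that was named after its values were seen, at 75.0 against 40.3 FPKM. SOCS2, another such inhibitor, was lower at 11.8 against 23.8, and the kinase JAK2 at 2.59 against 5.55. After GC adjustment JAK2 no longer passed. In co-depleted cells the same 3 were higher and SOCS2 lower, at 9.11 FPKM (median 0.18), and SOCS3, at 64.4 FPKM, no longer passed after GC adjustment. The ligands IL2, IL4, IL9 and IL21 were listed at 0 throughout, and the highest value of TSLP was 0.10. These ligands and IL34, below, were named after their values were seen.

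Of 5 measured genes among other haematopoietic cytokines and receptors, CSF2RA was higher and KITLG and CSF1R lower in FoxO3-depleted cells (median -0.14), beside the same 4.0% and 16.7%. KITLG, the ligand of the receptor KIT, was at 13.2, 5.87 and 6.92 FPKM. KITLG and CSF1R were lower in co-depleted cells too and 0 genes higher (median 0.06), and after GC adjustment KITLG passed in neither comparison. FLT3LG, a dendritic cell growth factor, was at 3.62, 3.61 and 4.53 FPKM. The other ligand of CSF1R, IL34, was at 0.20, 0.45 and 0.24, far under CSF1.

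Of 24 measured genes of the tumour necrosis factor family and its signalling, 5 were higher and 2 lower in FoxO3-depleted cells (median 0.07), beside 4.0% and 16.7% of all genes. BIRC3, an inhibitor of apoptosis that is itself an NF-kB target, was at 23.4, 42.8 and 53.3 FPKM, and TNFSF9, the 4-1BB ligand, at 10.1, 20.2 and 16.2. The other 3, named after their values were seen, were the adaptor TRAF2 at 39.0, 64.3 and 60.8, the death receptor TNFRSF10A at 25.8, 41.6 and 43.4, and the feedback inhibitor TNFAIP3 at 6.66, 10.7 and 11.1. TNFSF15 and BIRC2 were lower, at 2.60 against 5.64 and 59.9 against 100.9 FPKM. After GC adjustment 4 were higher and 0 lower, with no adjusted share of all genes to read them against.

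In co-depleted cells 5 of these 24 were again higher, the same genes, and 0 lower (median 0.00), or 3 higher after GC adjustment. The genes around TNF were thus expressed, and some were higher in the depleted libraries, where TNF itself had at most 2 reads. Between the depletions, 0 genes of the interleukin-1, common gamma chain, haematopoietic and tumour necrosis factor lists passed 1.5-fold in either direction. Over all analysed genes 1.35% were higher and 0.617% lower in that comparison, so 0 is near the background.

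Other cytokines and chemokines that NF-kB is known to induce were mostly higher in both depleted libraries, as CSF2 was, and 15 of the 16 listed were found in the files. Of 11 measured, 8 were higher and 0 lower in FoxO3-depleted cells (median 0.78), where 4.0% of all genes were higher. In co-depleted cells 9 were higher and 0 lower (median 0.76), where 4.02% of all genes were higher. CXCL10 and CXCL3, the latter named after its values were seen, were under 1 FPKM in the control (0.41 and 0.73). They passed the minimum mean only through the depleted libraries, and both are among the higher genes in each. With the list also chosen with these data known, the counts are a description only. After GC adjustment 7 and 9 were higher. In FoxO3-depleted cells LIF and CXCL2 then no longer passed and CXCL8 did, all 3 named after their values were seen. IL6, an inflammatory cytokine, was at 5.46, 27.3 and 25.8 FPKM, and CXCL10, an interferon-inducible chemokine, was at 0.41, 4.91 and 8.27 (7, 62 and 119 reads). CXCL10 was the 1 gene of the list past 1.5-fold between the depletions, where 1.35% of all genes were higher and 0.617% lower. That call ended after GC adjustment. IL24 and IL32 had the smallest ratios in FoxO3-depleted cells, at 1.05 against 1.45 and 9.84 against 7.47 FPKM. The FPKM ratios to control were 11.9 and 20.1 for CXCL10 and 5.0 and 4.71 for IL6, beside 3.03 and 2.63 for CSF2.

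Regulators of cytokine mRNA decay were all measured, 16 of 16, with 1 higher and 4 lower in FoxO3-depleted cells (median 0.03), near the 4.0% and 16.7% of all genes. ZC3H12A, an endonuclease that degrades cytokine mRNAs, was higher at 4.05, 8.50 and 8.13 FPKM, and ARID5A, which stabilises IL6 mRNA, was at 4.54, 6.46 and 6.90. ZFP36L1, which promotes the decay of AU-rich transcripts, was lower at 118.9, 62.3 and 68.2. TIA1, a translational silencer of TNF mRNA, was at 40.0, 12.3 and 21.8. The other 2 lower genes, named after their values were seen, were the kinase MAPKAPK2 at 80.8 against 137.8 and RC3H2 at 27.5 against 48.3. After GC adjustment RC3H2 no longer passed and TIAL1, a relative of TIA1 also named after its values were seen, did so as higher (log2 ratio 0.82), which gives 2 higher and 3 lower.

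ZC3H12A and ZFP36, the founding member of the ZFP36 family (8.45, 11.2 and 13.8 FPKM, named after its values were seen), were higher in co-depleted cells and ZFP36L1, TIA1 and MAPKAPK2 lower (median -0.06). After GC adjustment ZFP36 and TIA1 no longer passed in that comparison. Between the depletions TIA1 was the 1 gene of this list past 1.5-fold, at 1.77 times FoxO3-depleted cells (1.46 to 2.14). Over all genes 1.35% were higher and 0.617% lower there. TIA1, like IL7 and CSF1, was lowest in the FoxO3-depleted library, and a link between these genes was not tested.

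AU-rich elements set the members apart from each other. In the 3' untranslated region of the longest coding transcript, the pentamer ATTTA occurred 8 times in CSF2, 9 times in TNF, 7 in CSF3, 6 in IL1B, 5 in IL1A and 4 each in IL7, IL15 and CSF1. Per length this was 25.2 per kilobase in CSF2, 11.3 in TNF and 1.86 in CSF1, beside a median of 1.19 over 19844 coding genes. The nonamer TTATTTATT, the core of the strong elements, occurred 3 times in CSF2, 5 times in TNF and 2 times in IL1B, overlapping copies included, and in 6.87% of coding genes. The other 5 members had none. Among analysed genes, 945 with the nonamer had a median log2 ratio of -0.12 in FoxO3-depleted cells and 10480 without it -0.06. After GC adjustment the medians were 0.03 and 0.01, so the order of these small differences turned with the adjustment.

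The start regions of CSF2, TNF and IL1A are shown because they set the member with the highest ratio beside 2 members with almost no reads. They are the 250 bases before a RefSeq gene start on GRCh38.p14. Those of CSF2 (chr5:132073539-132073788) and TNF (chr6:31575315-31575564) are on the plus strand. That of IL1A (chr2:112784494-112784743), the first of 2 listed for the gene, is on the minus strand. RefSeq sequences were at hand for 4 of the 8 members (IL1A, IL1B, CSF2 and TNF). Capitals mark the kappaB-like pattern of GGG and CC 5 bases apart, the AP-1 motif TGANTCA, the motif TATAAA and the forkhead motif GTAAACA, each searched on both strands.
CSF2: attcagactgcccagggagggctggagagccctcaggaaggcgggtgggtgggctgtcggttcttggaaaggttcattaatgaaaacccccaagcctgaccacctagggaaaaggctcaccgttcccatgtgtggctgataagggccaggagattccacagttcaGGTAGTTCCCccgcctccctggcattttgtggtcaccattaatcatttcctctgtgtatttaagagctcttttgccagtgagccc
TNF: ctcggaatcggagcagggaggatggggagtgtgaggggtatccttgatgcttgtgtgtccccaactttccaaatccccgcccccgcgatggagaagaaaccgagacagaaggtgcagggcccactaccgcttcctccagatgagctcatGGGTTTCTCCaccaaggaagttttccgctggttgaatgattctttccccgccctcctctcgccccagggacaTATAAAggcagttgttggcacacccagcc
IL1A: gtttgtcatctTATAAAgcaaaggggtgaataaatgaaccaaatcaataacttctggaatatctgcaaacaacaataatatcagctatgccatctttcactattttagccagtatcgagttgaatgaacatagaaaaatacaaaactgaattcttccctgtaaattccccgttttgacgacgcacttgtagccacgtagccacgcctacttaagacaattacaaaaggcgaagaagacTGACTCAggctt

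In CSF2 the kappaB-like match lies at bases -85 to -76 from the start, and in TNF at -101 to -92. The pattern is loose, and 53.7% of 27305 promoter windows of this length hold it. A stricter NF-kB consensus, held by 5.05% of windows, was not found in those of IL1A, IL1B, CSF2 or TNF. TATAAA lies at -29 to -24 in TNF and at -239 to -234 in the shown region of IL1A, with 11.1% of windows holding it. The AP-1 motif lies at -12 to -6 in that IL1A region, with 6.60%. The window before the second IL1A start, not shown, overlaps the shown one. There the AP-1 motif lies at -105 to -99, which is the same site again, and at -55 to -49, and TATAAA was not found. GTAAACA, held by 2.98% of windows, was not found in those of IL1A, IL1B, CSF2 or TNF. A match is only a match of letters and says nothing of binding, and a missing match says only that these letters are not in this window.

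The neighbours of the members on the chromosome were taken by order alone from RefSeq. IL3, the gene next to CSF2 and a cytokine of the same cluster, was listed at 0 in all 3 libraries, while P4HA2 on the other side was at 29.8 FPKM in control cells, 48.2 in FoxO3-depleted cells and 52.9 in co-depleted cells, past 1.5-fold higher in both, as CSF2 was. AHCYL1, next to CSF1, was at 107.0, 111.9 and 107.2, and the other neighbour EPS8L3 was at 0.07, 0 and 0. Beside IL15, ZNF330 was at 43.8, 44.2 and 46.5, and INPP4B at 40.2, 27.8 and 26.3. IL37, next to IL1B, was listed at 0, and the lymphotoxin genes LTA and LTB on either side of TNF were at 0.10, 0.26 and 0.34 and at 0.71, 0.77 and 1.43.

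The genes most like each member over the 3 libraries were sought by the distance of log2 (FPKM + 1) centred on each gene's mean. For CSF2 these were LYPD6B (0.30, 2.39 and 2.10 FPKM), YRDC (16.0, 41.1 and 36.1) and the stress-induced transcription factor ATF3 (6.84, 18.9 and 15.8), at distances of 0.046 to 0.074. For IL15 they were PYCR1, KCNK6 and the interferon-induced gene IFIT2 (57.5, 72.3 and 91.9). Nearest to CSF1 were ARPIN, RGS5 and CDC73, where the entry named RGS5 is annotated as antisense and not as protein-coding. For IL7 the nearest was DNAAF3 (2.26, 0.66 and 2.24), followed by the non-coding AC005838.2 and AC006441.1. Within a distance of 0.1 lay 544 genes for CSF1, 55 for IL15, 6 for CSF2 and 3 for IL7. With 3 libraries such likeness is a description only.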

How the data were processed

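The authors deposited FPKM values per Ensembl gene, 1 file per library. TopHat2 2.0.9, a read aligner, is listed in the submitters' processing notes. How reads were counted, with which strand setting, build and annotation, and how FPKM was computed is not stated in the sources used here, so no coordinates are given with the FPKM values. Those of the 3 start regions are RefSeq's own. GENCODE 29 matched 45341 of 48162 gene IDs and gave their names, GC content and transcript lengths. Genes with a name and a mean of at least 1 FPKM (12649, of which 11435 protein-coding) were analysed.

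The commonest product of FPKM and length among single-transcript genes gave each library's total, and the smallest whole length up to 20000 bases that makes all reads whole gave the reads, to within the rounding of the files. For the cytokine genes, FOXO3 and GMNN, reads were multiplied where the only GENCODE 29 transcript was an exact multiple of that length (IL1A, by 2). The shares of intervals over all genes rest on the smallest reads. Ratios were taken as log2 of (FPKM + 1), which understates differences of low genes. Recovery and intervals were tested on simulated data. No test was possible with 1 library per group.

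Named genes are the 8 cytokine genes, FOXO3 and GMNN, the receptors and IL1RN, the 2 highest and 2 lowest ratios of each list in the FoxO3-depleted library, and the 3 most alike patterns. PTPRC, CD3E, MS4A1, VIM, ESR1 and PGR, outside this rule, were named after their values were seen. The members, lists and alternatives were chosen with earlier results of these data known. Python 3.11.15, numpy 2.4.6, pandas 2.3.3 and scipy 1.17.1 were used.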

Additional observations from a re-analysis of the deposited data

How the results depend on the processing

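The number of the 4 measured cytokine genes past 1.5-fold was recomputed under 11 alternatives. In the FoxO3 depletion against the control, 1 higher became 2 with GC content adjusted and with GC content and length adjusted, through IL15, and 0 at 3-fold. The 2 lower became 1 under both of those adjustments, with a mean of at least 5 FPKM, with the median log2 ratio set to 0 and at 2-fold, 0 at 3-fold, and 3 with no minimum on FPKM, through IL1B. In the co-depletion against the control, 2 higher became 1 with a mean of at least 5 FPKM and at 2-fold, and 0 at 3-fold, and 0 lower became 1 with no minimum, through IL1B. In the co-depletion against the FoxO3 depletion, 1 higher became 0 with a mean of at least 5 FPKM and at 3-fold. The minimum of 5 FPKM leaves out IL7 and IL15, and a larger fold passes fewer genes by construction. The cause of the other differences was not tested, and GC-adjusted shares over all genes are not given. Pseudocounts of 0.1 and 0.5, rescaling to TPM and protein-coding genes alone left all 6 counts as they were. CSF2 had log2 ratios of 1.25 to 1.57 in the FoxO3-depleted library and 1.10 to 1.37 in the co-depleted library over the pseudocounts, scalings and adjustments. No past-threshold log2 ratio of a member or listed gene changed sign under these. Depth limits IL1A, IL1B, CSF3 and TNF, which had at most 9 reads in a library, and IL7, whose reads are known only up to a common factor. Multiplying its reads was an alternative chosen after seeing the data. No paired analysis was possible because each group has 1 library.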
